A study of Schizosaccharomyces pombe with 8 samples.

Results

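The vacuolar protein sorting (vps) genes of fission yeast are described here across the pheromone arrays of the series. They were taken by name: every gene whose current symbol is vps followed by a digit. RefSeq lists 35 such symbols, and 34 of them had spots, out of 4736 genes that could be named on the arrays. The exception was vps35, a core subunit of retromer, which is named only. The rule uses names and no measured value, although earlier results of these data were known when it was set.

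M cells (h- sax2- cyr1- in the labels, where sax2 is taken as sxa2 of the study's methods) were treated with P-factor, the pheromone of P cells. The P cells, h+ cyr1-, received M-factor, the pheromone of M cells. In the study's methods both strains carry cyr1::ura4+ ura4-D18, so neither has adenylate cyclase, and both have a deletion at the silent mating-type cassettes and cannot switch mating type. The sxa2 mutation removes the secreted protease that degrades P-factor, and is carried by M cells only. Pheromone was given at 1 μg/ml in MSL minimal medium, and RNA of 2, 4 and 6 h was set against RNA of untreated cells of the same strain on 2-colour arrays, 1 array for each time and pheromone. A further 2 arrays set M cells directly against P cells, untreated and after 6 h of pheromone. Strain and pheromone change together, so a difference between the P-factor and M-factor courses cannot be told apart from a difference between the strains. Treated RNA was labelled with Cy3 on every array of the courses except M-factor at 2 h, where it was in Cy5. M cell RNA was in Cy3 on both direct arrays.

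The vps genes were first defined in budding yeast, Saccharomyces cerevisiae, as genes whose loss sends vacuolar hydrolases out of the cell, and most roles given below were worked out there. A sorting receptor carries hydrolases from the Golgi to endosomes, and retromer returns the emptied receptor. The ESCRT complexes sort ubiquitylated membrane proteins, pheromone receptors among them, into vesicles inside the endosome, which are degraded in the vacuole. CORVET and HOPS share a core of subunits and tether membranes before fusion, CORVET at endosomes and HOPS at the vacuole.

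Values are log2 ratios of treated over untreated RNA, averaged over the spots of a gene that had a value, so 1 is a 2-fold and 0.58 about a 1.5-fold increase. Every vps gene had a pair of spots, but where a spot had no value the other alone gave the ratio. At 2 h of P-factor this held for many vps genes, among them vps5, vps24, vps29, vps55 and vps901. The array medians over all genes lay between -0.04 and 0.04. Known genes checked the labels. The P-factor receptor gene mam2 read 3.51, 5.33 and 4.79 in P-factor-treated M cells at 2, 4 and 6 h, and 3.05 after 6 h and 1.65 untreated as M over P cells. The P-factor precursor gene map2 read 3.12, 3.08 and 3.28 in M-factor-treated P cells, and -3.12 after 6 h and -2.94 untreated as M over P cells. The M-factor receptor gene map3, the other marker of P cells, read -0.35, -0.61 and -0.09 in M-factor-treated P cells, so it was not raised there, and -3.53 after 6 h and -1.23 untreated as M over P cells. The pheromone-response genes fus1, ste11, spk1 and mei2 were above 1 on all 6 arrays of the courses. The disrupted cyr1 is the same in both channels of every array, so its ratio cannot check the labels. The sxa2 spots read 8.37, 9.36 and 6.27 in P-factor-treated M cells and so do not show the mutation in M cells.

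Means over the 3 times were tested with limma on the 4078 genes that had all 6 values, and a gene was called at an adjusted p of at most 0.05 over all of them. The 3 times of a course stood in for replicates and may share the untreated RNA, so the p-values measure the spread between times. Of the 34 vps genes 29 were fitted, since vps25, vps32, vps33, vps60 and vps71 had no value on the P-factor 2 h array. With P-factor, 8 of 29 rose and 0 fell, or 27.6%, against 36.5% of all genes called in either direction (18.1% higher and 18.4% lower). With M-factor, 11 rose and 1 fell, or 41.4%, against 47.2% of all genes (24% higher and 23.2% lower). At an unadjusted p under 0.05 with P-factor, vps38 and vps52 were also below 0. With each pheromone fitted alone, 8 of 29 rose and 3 fell with P-factor (vps38, vps52 and vps4), and 6 of 34 rose and 0 fell with M-factor. The share of all genes called was not counted for these separate fits, so their counts have no background. In the joint fit the share of vps genes called in either direction was thus a little below the background with both pheromones. The share called higher was above it, at 27.6% against 18.1% with P-factor and 37.9% against 24% with M-factor. With only 29 genes, these gaps were not tested. The 1 downward call in the joint fit was vps38 with M-factor. The median of the 29 means was 0.13 with P-factor and 0.28 with M-factor, beside medians over all genes of -0.02 for both. By array, the median over vps genes with a value was 0.08, 0.23 and 0.13 at 2, 4 and 6 h of P-factor. With M-factor it was 0.46, 0.18 and 0.22, highest on the 2 h array, the one with treated RNA in Cy5.

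**Figure D1:**
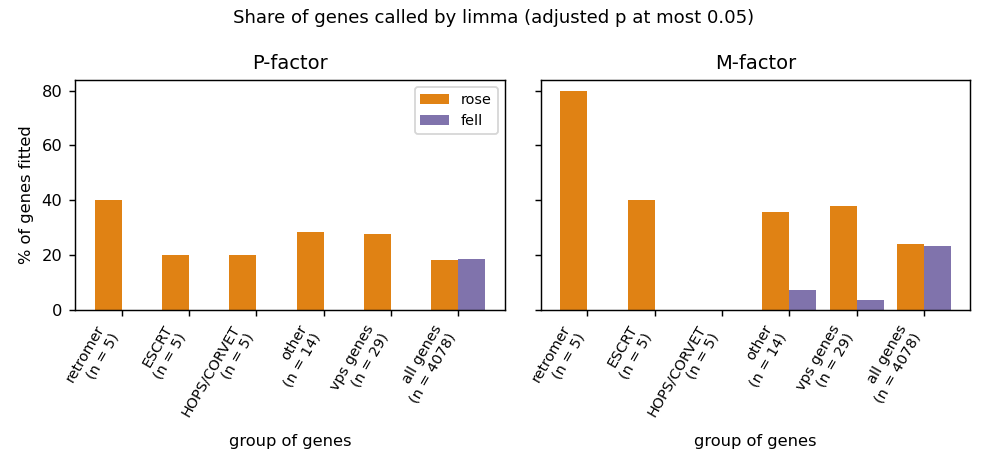
Percentage of the fitted genes that limma called as risen or fallen (adjusted p at most 0.05), for the vps genes by complex and for all genes, with P-factor (left) and M-factor (right); n is the number of genes fitted. With P-factor 27.6% of vps genes rose and none fell, and with M-factor 37.9% rose and 3.45% fell, while all genes were split about evenly.

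The changes were small. No vps gene had a mean past 2-fold with P-factor, where 10.1% of all genes did, and only vps15 did with M-factor, 3.45% of the vps genes fitted against 16.11% of all genes. At least 1.5-fold at all of 2, 4 and 6 h was reached by vps53 with P-factor (3.4% of 29, against 8.1% of all genes) and by vps15 and vps1 with M-factor (5.9% of 34, against 10.7%). Single arrays past 2-fold were vps3 at 4 h of P-factor, and vps15 at 2 h, vps901 at 4 h and, downwards, vps38 at 4 h of M-factor. A ratio above 0 at all 3 times was found for 12 of 29 vps genes with P-factor (41.4%, against 33.6% of all genes) and for 15 of 34 with M-factor (44.1%, against 33.7%). A ratio below 0 at all 3 times was found for 4 of 29 with P-factor (13.8%, against 36.4%) and for 7 of 34 with M-factor (20.6%, against 32.1%). In bulk RNA of this kind a change in the share of cells that respond and a change per cell cannot be told apart.

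**Figure D2:**
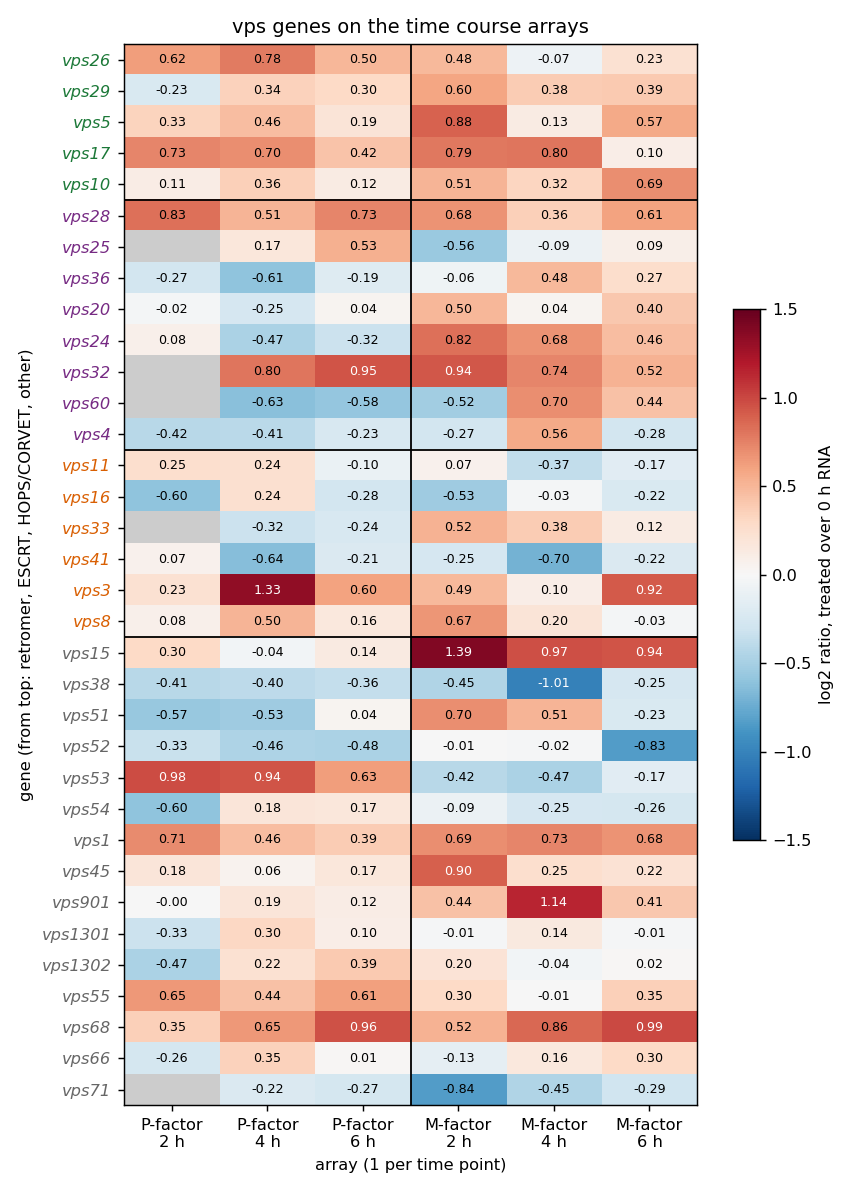
Log2 ratio of treated over untreated RNA for the 34 vps genes (rows, grouped from the top as retromer, ESCRT, HOPS/CORVET and other) on the 6 arrays of the courses (columns), with the value printed in each cell and grey where there was none. The widest values are 1.39 for vps15 at 2 h of M-factor and 1.33 for vps3 at 4 h of P-factor.

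Retromer genes were above 0 on average with both pheromones. This group counts vps10, which encodes a cargo receptor and not a subunit of retromer. Of the 5 with spots, 2 rose with P-factor (vps26 and vps17) and 4 with M-factor (vps29, vps5, vps17 and vps10), and none fell. Of all genes 36.5% were called with P-factor (18.1% higher) and 47.2% with M-factor (24% higher). A share cannot be read from only 5 genes. The retromer median was 0.33 with P-factor and 0.51 with M-factor. The core subunit gene vps26 read 0.62, 0.78 and 0.50 at 2, 4 and 6 h of P-factor, against 0.48, -0.07 and 0.23 with M-factor. All 3 P-factor values were above all 3 M-factor values, with a mean of 0.64 with P-factor (SE 0.155, adjusted p = 0.0125) and 0.21 with M-factor (adjusted p = 0.283). The difference of 0.42 did not pass the test (adjusted p = 0.246). The other core gene, vps29, read -0.23, 0.34 and 0.30 in P-factor and 0.60, 0.38 and 0.39 in M-factor. The courses were thus close at 4 and 6 h, and the P-factor 2 h value came from a single spot. Its mean was 0.14 with P-factor (adjusted p = 0.516) and 0.46 with M-factor (adjusted p = 0.0397), with no call on the difference (adjusted p = 0.387). The M-factor call was lost without the 2, 4 or 6 h M-factor array, and without the 4 or 6 h P-factor array.

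The sorting nexin genes vps5 and vps17 encode the partners that give retromer its hold on the membrane in budding yeast. The gene vps17 read 0.73, 0.70 and 0.42 with P-factor and 0.79, 0.80 and 0.10 with M-factor, so that the 6 h value was the lowest in both courses. It rose with both, by a mean of 0.62 with P-factor (adjusted p = 0.023) and 0.56 with M-factor (adjusted p = 0.0255), and was the only retromer gene to do so. Its P-factor call was lost with each of the 3 P-factor arrays left out (adjusted p = 0.066 to 0.134). Its M-factor call was lost without the 2 h array (adjusted p = 0.108) and without the 4 h array (adjusted p = 0.124). For vps5 the ratios were 0.33, 0.46 and 0.19 with P-factor and 0.88, 0.13 and 0.57 with M-factor. The ranges overlapped, and the mean passed the test only with M-factor (0.33 with P-factor, adjusted p = 0.155, and 0.53 with M-factor, adjusted p = 0.0296). Without the M-factor 2 h array its M-factor mean was 0.35 (adjusted p = 0.149). The receptor gene vps10, whose product binds carboxypeptidase Y, gave 0.11, 0.36 and 0.12 with P-factor and 0.51, 0.32 and 0.69 with M-factor. Its mean was 0.19 with P-factor (adjusted p = 0.319) and 0.51 with M-factor (adjusted p = 0.0176). None of the 5 retromer genes passed the test of the difference between the courses, where 4.61% of all genes did.

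ESCRT genes did not move as a group with P-factor. Of 8 with spots 5 were fitted, of which 1 rose with P-factor and 2 with M-factor, and none fell. The background was 36.5% of all genes called with P-factor and 47.2% with M-factor, and 5 genes are again too few for a share. The ESCRT median was -0.24 with P-factor and 0.32 with M-factor. The gene vps28, of the ESCRT-I complex that meets the ubiquitylated cargo, read 0.83, 0.51 and 0.73 with P-factor and 0.68, 0.36 and 0.61 with M-factor. Every value was above 0 and the lowest was at 4 h in both courses. It rose by 0.69 with P-factor (SE 0.145, adjusted p = 0.00649) and by 0.55 with M-factor (SE 0.145, adjusted p = 0.0127). The ESCRT-III gene vps24 had values of 0.08, -0.47 and -0.32 with P-factor and 0.82, 0.68 and 0.46 with M-factor. It rose with M-factor only (mean -0.24 with P-factor, adjusted p = 0.267, and 0.66 with M-factor, adjusted p = 0.00856), and its 3 M-factor values all lay above its 3 P-factor values.

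Other ESCRT genes stayed under the threshold. The means of vps36 (ESCRT-II), vps20 (ESCRT-III) and vps4, the ATPase that takes ESCRT-III filaments apart, lay between -0.36 and -0.08 with P-factor and between 0.01 and 0.32 with M-factor. The ESCRT-III gene vps32 was left out of the test for its missing P-factor 2 h value. It read 0.80 and 0.95 at 4 and 6 h of P-factor, and 0.94, 0.74 and 0.52 with M-factor, all among the higher values of the vps genes. In a fit that took genes with at least 2 values per pheromone it rose with both, by 0.87 with P-factor on 2 arrays (adjusted p = 0.00951) and 0.73 with M-factor (adjusted p = 0.00544). In the same fit the ESCRT-II gene vps25 and the ESCRT-III-related gene vps60 were not called. The values of vps60 were -0.63 and -0.58 at 4 and 6 h of P-factor, and -0.52, 0.70 and 0.44 with M-factor, where the 2 h array stood apart from the later ones.

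Of the 5 HOPS and CORVET genes fitted, 1 was called with P-factor (vps3) and 0 with M-factor, where 0 also passed at an unadjusted p under 0.05. Beside them stand 36.5% of all genes with P-factor and 47.2% with M-factor, and 5 genes are too few to read a share from. Their median was 0.13 with P-factor and -0.16 with M-factor, and over all 6 members, vps33 included, both signs turned, to -0.042 with P-factor and 0.059 with M-factor. The CORVET gene vps3 read 0.23, 1.33 and 0.60 with P-factor and 0.49, 0.10 and 0.92 with M-factor. It was above 0 on all 6 arrays with a wide spread, and rose by 0.72 with P-factor (SE 0.227, adjusted p = 0.0335), while its mean with M-factor was 0.50 (adjusted p = 0.0944). The P-factor call was lost without the 4 h array (0.417, adjusted p = 0.266) and with 1 spot of the pair (0.416, adjusted p = 0.411). The other CORVET gene, vps8, had a mean of 0.25 with P-factor and 0.28 with M-factor, both below the threshold. The core genes vps11 and vps16 and the HOPS gene vps41 had means between -0.26 and 0.13 with P-factor and between -0.39 and -0.16 with M-factor, and none was called. The core gene vps33, which encodes a Sec1/Munc18 protein and was not in the test, read -0.32 and -0.24 at 4 and 6 h of P-factor and 0.52, 0.38 and 0.12 with M-factor. The fit with at least 2 values per pheromone did not call it (adjusted p = 0.271 with P-factor and 0.0949 with M-factor). Whether the complexes differ from one another was not tested.

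**Figure D3:**
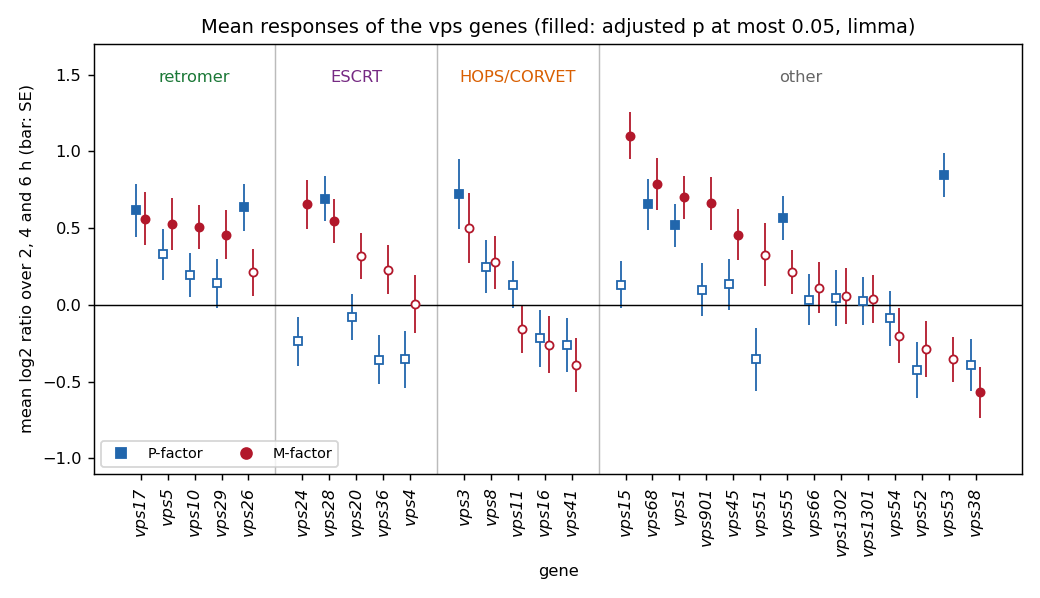
Mean log2 ratio over 2, 4 and 6 h (3 arrays) with its standard error from limma for the 29 vps genes fitted, with P-factor as blue squares to the left of M-factor as red circles; filled symbols have an adjusted p of at most 0.05. All 5 genes of the retromer group, the cargo receptor gene vps10 included, lie above 0 with both pheromones, and vps53 and vps15 show the widest gaps between the courses.

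Among the 15 vps genes outside these complexes, 14 were fitted, of which 4 rose with P-factor (vps53, vps1, vps55 and vps68), and 5 rose (vps15, vps1, vps45, vps901 and vps68) and 1 fell (vps38) with M-factor. That is 28.6% called with P-factor and 42.9% with M-factor, beside 36.5% and 47.2% of all genes. The gene vps1 encodes a dynamin-related GTPase and read 0.71, 0.46 and 0.39 with P-factor and 0.69, 0.73 and 0.68 with M-factor. The M-factor values were nearly level, but the paired spots ran in opposite directions, at 0.37, 0.88 and 1.05 for one and 1.01, 0.58 and 0.30 for the other. With P-factor the first of these spots read 1.07, 0.91 and 0.65, and the other only 0.35, 0.005 and 0.12. The gene vps1 rose by 0.52 with P-factor (adjusted p = 0.0181) and 0.70 with M-factor (adjusted p = 0.00318). The genes vps68 and vps55 encode endosomal membrane proteins that act together in budding yeast. The first read 0.35, 0.65 and 0.96 with P-factor and 0.52, 0.86 and 0.99 with M-factor. It climbed with time in both courses, with means of 0.66 with P-factor (adjusted p = 0.0153) and 0.79 with M-factor (adjusted p = 0.00443). The second, vps55, read 0.65, 0.44 and 0.61 with P-factor and 0.30, -0.01 and 0.35 with M-factor. For vps55 the P-factor 2 h value came from 1 spot, which read 0.82 at 4 h, where the other read 0.07. All its P-factor values were above its M-factor values, and its mean passed the test only with P-factor (0.57, adjusted p = 0.0151, and 0.22 with M-factor, adjusted p = 0.239), with no call on the difference (adjusted p = 0.292).

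The genes vps901 and vps45 were called with M-factor and not with P-factor. The gene vps901 encodes an exchange factor for the Rab5 GTPase, and read -0.002, 0.19 and 0.12 with P-factor and 0.44, 1.14 and 0.41 with M-factor. Its 3 M-factor values were all higher, with the 4 h array far above the others, and its mean was 0.10 with P-factor (adjusted p = 0.674) and 0.66 with M-factor (adjusted p = 0.012), or 0.42 without the M-factor 4 h array (adjusted p = 0.0653). The gene vps45, for a Sec1/Munc18 protein, read 0.18, 0.06 and 0.17 with P-factor and 0.90, 0.25 and 0.22 with M-factor. Its M-factor call was the one nearest to the threshold (0.46, adjusted p = 0.0476) and its 2 h value was far above the others, without which the mean was 0.24 (adjusted p = 0.248). Neither gene passed the test of the difference (adjusted p = 0.178 for vps901 and 0.404 for vps45).

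The gene vps38, which belongs to the phosphatidylinositol 3-kinase complex of the endosome, was the only vps gene called as lower in the joint fit of 29. It read -0.41, -0.40 and -0.36 with P-factor and -0.45, -1.01 and -0.25 with M-factor, below 0 on all 6 arrays. Its mean was -0.39 with P-factor (adjusted p = 0.097) and -0.57 with M-factor (adjusted p = 0.0203), or -0.35 with M-factor without the 4 h array (adjusted p = 0.115). The gene vps71 encodes a subunit of the SWR1 chromatin remodelling complex and not of the sorting machinery. It read -0.22 and -0.27 at 4 and 6 h of P-factor and -0.84, -0.45 and -0.29 with M-factor, and in the fit with at least 2 values per pheromone it fell with M-factor (-0.53, adjusted p = 0.0266) and was not called with P-factor (adjusted p = 0.369). The other 6 genes of this group had means between -0.42 and 0.05 with P-factor and between -0.29 and 0.33 with M-factor, with no call. They include 3 of the 4 subunits of GARP, the complex that tethers endosome-derived vesicles at the Golgi, and the fourth was vps53.

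The difference between the courses, P-factor mean minus M-factor mean, was called for 2 of 29 vps genes (6.9%), 1 higher and 1 lower with P-factor, against 4.61% of all genes (2.53% higher and 2.08% lower). The GARP gene vps53 read 0.98, 0.94 and 0.63 with P-factor and -0.42, -0.47 and -0.17 with M-factor. The values did not overlap and had opposite signs at every time. The mean was 0.85 with P-factor (1.8-fold, SE 0.146, adjusted p = 0.00271) and -0.35 with M-factor (adjusted p = 0.0729), and the difference was 1.20 (SE 0.207, adjusted p = 0.024). The gene vps15 encodes the regulatory subunit of the phosphatidylinositol 3-kinase, and read 0.30, -0.04 and 0.14 with P-factor and 1.39, 0.97 and 0.94 with M-factor. It had the highest mean of all vps genes fitted, and its M-factor values lay far above the P-factor values. The mean was 0.13 with P-factor (adjusted p = 0.522) and 1.10 with M-factor (2.15-fold, SE 0.154, adjusted p = 0.000591), and the difference was -0.97 (SE 0.217, adjusted p = 0.0409). The difference of vps24 was -0.89 (SE 0.225, adjusted p = 0.0556), and with the time point as a block, which pairs arrays of the same hour, it passed (adjusted p = 0.0462), as did vps53 (0.0342) and vps15 (0.0354).

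**Figure D4:**
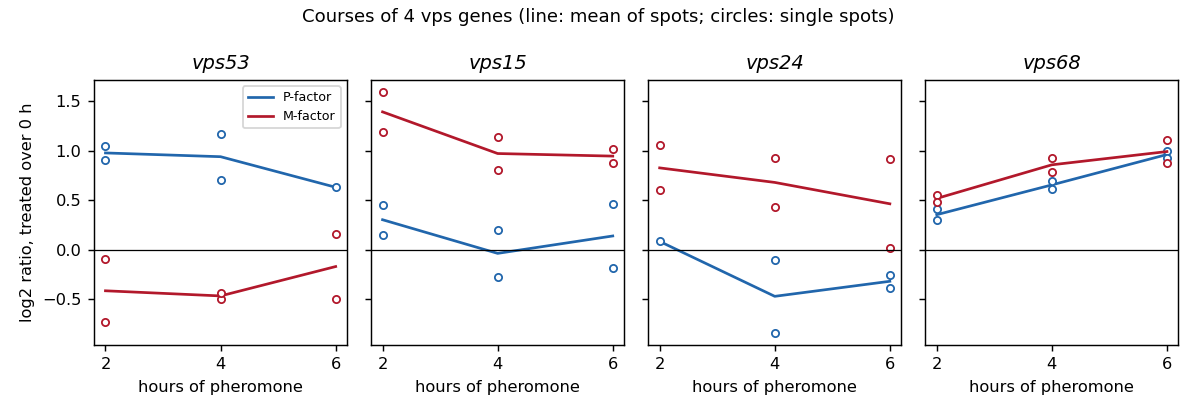
Log2 ratio of treated over untreated RNA against hours of pheromone for vps53, vps15, vps24 and vps68, with P-factor in blue and M-factor in red; lines join the means of the spots (1 array per point) and circles are single spots. The courses are apart at all times for vps53 (0.63 to 0.98 with P-factor, -0.47 to -0.17 with M-factor) and vps15 (-0.04 to 0.30 with P-factor, 0.94 to 1.39 with M-factor), and run together for vps68.

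On the direct arrays the differences of vps53, vps15 and vps24 were smaller in size, and that of vps15 had the opposite sign. There the M over P ratio after 6 h minus that of untreated cells can be set beside the P-factor minus the M-factor value at 6 h of the courses. For vps53 the courses gave 0.80 and the direct arrays 0.11, with a ratio of 0.01 after 6 h and -0.10 untreated. For vps15 the courses gave -0.81 and the direct arrays 0.09. For vps24 the courses gave -0.78 and the direct arrays -0.31. Over the 34 vps genes the change on the direct arrays spanned -0.31 to 0.29, while the value from the courses spanned -1.02 to 0.80, with a Pearson correlation across genes of 0.08, and of 0.30 across 4582 genes. The arrays may share RNA, and genes are not independent replicates, so this is a description.

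Calls depended on single arrays. Without the P-factor array of 2, 4 or 6 h, 5 of 34, 2 of 29 and 1 of 29 vps genes were called with P-factor. Beside them stand 23.5%, 13.2% and 17.6% of all genes. Only vps53 was called in each case, and vps28 was called without the 2 h and without the 4 h array. The P-factor calls of vps17, vps26, vps1 and vps55 were lost in each case. Without the M-factor array of 2, 4 or 6 h, 7, 7 and 9 of 29 were called with M-factor, beside 41.4%, 37.3% and 40.3% of all genes, and vps15, vps24, vps1 and vps68 were among them each time. No difference between the courses was called without the M-factor 4 h array or without any 1 of the 3 P-factor arrays. Without the M-factor 2 h array, the one with treated RNA in Cy5, vps53 alone was called.

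No vps gene passed the test of a shared slope over 2, 4 and 6 h, which 0.049% of all genes did (2 of 4078), and 1 had an unadjusted p under 0.05. That gene was vps68, at 0.14 per hour on the log2 scale (adjusted p = 0.425).

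Called with both pheromones were vps17, vps28, vps1 and vps68, 13.8% of the 29 genes, against 23.5% of all genes. They made up 50.0% of the P-factor calls and 33.3% of the M-factor calls, where over all genes the calls with both made up 64.4% of the P-factor and 49.8% of the M-factor calls. Called with neither were 13 of the 29 (44.8%), against 39.8% of all genes. The differences between these shares were not tested. Across the 29 genes the means with P-factor and with M-factor had a Pearson correlation of 0.40, and across the 4078 genes 0.73. The range of means was narrower among the vps genes, with an SD of 0.39 with P-factor and 0.40 with M-factor, against 0.72 and 0.83 over all genes. These correlations are across genes, which share arrays and are not independent, and the 2 values were not set against each other in a test.

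Genes of the same pathway that carry other names were taken from a list of 40, of which 31 had spots and 28 were fitted. With P-factor 8 of these rose and 3 fell (39.3%), and with M-factor 7 rose and 2 fell (32.1%). The share called was near the background of 36.5% with P-factor and below that of 47.2% with M-factor. Called with both were 6 genes (21.4%), against 23.5% of all genes. The HOPS gene vam6 rose by 0.45 with P-factor (adjusted p = 0.0296) and 0.66 with M-factor (adjusted p = 0.00386). The gene pep12, for an endosomal SNARE, rose by 0.69 with P-factor (adjusted p = 0.0115) and 0.76 with M-factor (adjusted p = 0.00514). A clathrin adaptor gene, gga22, rose by 0.52 with P-factor and 0.56 with M-factor, and atg14, of the autophagy-specific phosphatidylinositol 3-kinase complex, by 0.53 with P-factor and 0.88 with M-factor. The other 2 fell: sst4, for an ESCRT-0 subunit that binds ubiquitin, had a mean of -0.83 with P-factor (adjusted p = 0.00952) and -1.72 with M-factor (adjusted p = 0.000174), and vac8, for a vacuolar membrane protein, one of -0.78 with P-factor and -0.69 with M-factor. The drop in sst4 with M-factor was wider than that of any vps gene.

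On the direct arrays of the M strain over the P strain vps5 stood apart. As M over P cells it read -1.74 after 6 h of pheromone (spots -1.47 and -2.02) and -1.72 untreated (spots -1.502 and -1.93), so it was 3.35-fold lower in M cells after 6 h and 3.28-fold lower untreated. The other 33 vps genes lay between -0.16 (vps55) and 0.21 (vps25) after 6 h, and between -0.29 (vps28) and 0.34 (vps1301) untreated. Thus 1 of 34 vps genes was past 1.5-fold and past 2-fold on each array, always lower in M cells. Of all genes 1.01% were past 1.5-fold after 6 h (0.676% higher and 0.338% lower in M cells) and 0.422% past 2-fold (0.253% higher and 0.169% lower). Untreated, 2.45% were past 1.5-fold (1.96% higher and 0.486% lower) and 0.823% past 2-fold (0.676% higher and 0.148% lower). From the lowest of 4736 genes, vps5 had rank 7 after 6 h and rank 3 untreated. Only 5 genes were at least 2-fold lower in M cells on both arrays, and the other 4 were map2, map3, csr103 and adh4. The gene map2 encodes the P-factor precursor and map3 the M-factor receptor, both made by P cells. The 4 P-specific genes that the paper selected at more than 2-fold after 6 h do not include vps5. The M strain also carries the sxa2 mutation, so mating type and other differences between the strains cannot be told apart here. With 1 array for each condition, both with M cells in Cy3, there was no test.

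**Figure D5:**
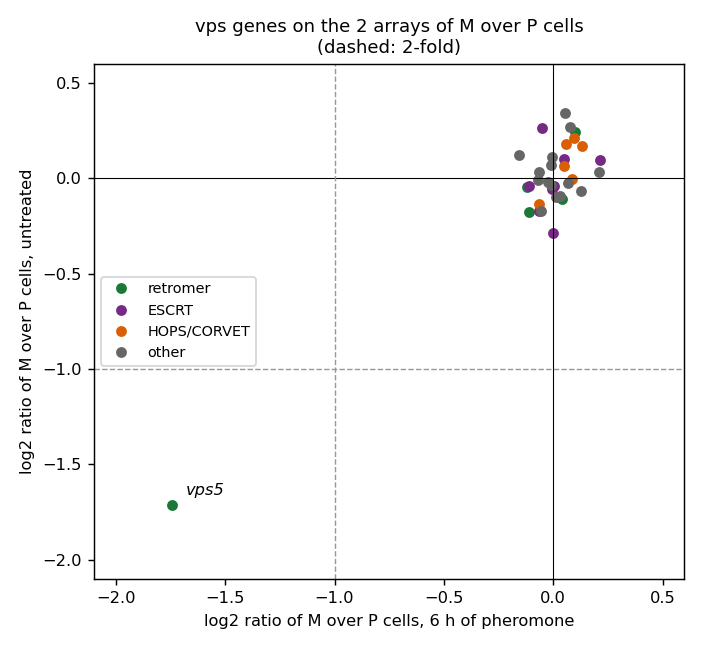
Log2 ratio of M over P cells for the 34 vps genes after 6 h of pheromone (horizontal) and untreated (vertical), 1 array each; dashed lines mark 2-fold lower in M cells. The gene vps5 lies at -1.74 and -1.72, and the other 33 genes lie between -0.29 and 0.34.

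The ratio of vps5 was of the same size on both direct arrays, and in the courses its means were under 2-fold in both cell types. The 10 nearest named genes on chromosome III, 5 on each side, lay between -0.33 and 0.12 after 6 h and between -0.40 and 0.64 untreated, so vps5 was lower than its neighbours. In RefSeq the gene overlaps xks1 and a noncoding RNA gene. The spots are double-stranded PCR products and do not tell strands apart. The overlapping xks1 read -0.02 after 6 h and 0.64 untreated as M over P cells, and rose with M-factor (mean 0.15 with P-factor and 1.47 with M-factor, adjusted p = 0.000102).

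Overlap with other genes was common: 17 of the 34 vps genes overlap a protein-coding gene in RefSeq, 25 a noncoding one and 31 either. The gene vps15 overlaps pmk1, which encodes the MAP kinase of the cell integrity pathway and had a mean of 0.43 with P-factor (adjusted p = 0.051) and 1.09 with M-factor (adjusted p = 0.000545), beside 0.13 with P-factor and 1.10 with M-factor for vps15. The part of this overlap in the vps15 values was not tested. The gene vps24 overlaps SPAC9E9.15, with 0.01 for P-factor and 0.19 for M-factor. For vps53 there is no overlapping protein-coding gene, but 1 noncoding gene overlaps it.

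The paired spots of a gene often disagreed. On at least 1 array of the courses, 15 of the 34 vps genes had spots more than 1 log2 unit apart, and in 50 of 179 pairs the spots had opposite signs. The largest gap of a gene ran from 0.24 for vps68 to 2.40 for vps41, whose spots at 4 h of M-factor read -1.90 and 0.50. Such gaps are as wide as most of the means given above, and with so few arrays every value is imprecise.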

How the data were processed

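The authors used 2-colour arrays of PCR products, Imagene 4.2 to quantify the spots, and the Lowess option of GeneSpring to normalise. Ratios of channel 1 over channel 2 were deposited as log2 values at 2 and 4 h of M-factor, and as natural log values on the other 6 arrays, which were turned to log2. The log bases are not stated, and were inferred from the values. For M over P cells at 6 h the base is likely, not settled. Spot intensities were not used here, and precision is limited by how few arrays there are, with no measure of signal over background. Columns of samples left out numbered 0. The lowest ratio, 0.01, is a floor that no vps spot reached.

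Of 11520 spots, 9488 had 1 gene symbol, updated by RefSeq. Spots were averaged per gene. The lmFit and eBayes functions of limma 3.58.1 (R 4.3.3) gave 1 mean per pheromone with a shared spread and its standard error, adjusted by Benjamini-Hochberg over 4078 genes. Members, complexes and lists were chosen with earlier results of these data known. Named are all retromer, ESCRT and HOPS/CORVET genes, other vps genes that were called or past 2-fold on an array, and pathway genes called with both pheromones. The genes vps52 and vps71, and genes that overlap a vps gene, were added after their values were seen. Same-hour arrays of both courses deviated together (correlation 0.351 at 2 h, 0.103 at 4 h and 0.35 at 6 h), so the time point was used as a block in an alternative. Other alternatives were log bases, centring, quantile normalisation, single spots, separate fits, a 1.5-fold limit, the methods' t-test and leaving out each array. The fit was tested on simulated data. The other steps ran in Python 3.11.15 (scipy 1.17.1, pandas 2.3.3, numpy 2.4.6, matplotlib 3.10.9). No sequence of these genes was used here.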

Additional observations from a re-analysis of the deposited data

Results flagged for a closer look

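The P-factor minus M-factor difference of the means was past the threshold for vps53 and vps15, as tested by the contrast in limma. For vps53 it was 1.20 (adjusted p = 0.024), with 3 of 3 times higher with P-factor. For vps15 it was -0.97 (adjusted p = 0.0409), with 3 of 3 times lower with P-factor. Neither was called without the M-factor 4 h array, or without the P-factor 2, 4 or 6 h array. Without the M-factor 2 h array vps15 was not called. The change on the direct arrays was 0.11 for vps53 and 0.09 for vps15. At 6 h the courses gave 0.80 for vps53 and -0.81 for vps15.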

How the results depend on the processing

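The 8 calls with P-factor became 2 with all arrays read as log2 and 2 with all read as natural log, 4 with 1 spot per gene (15 vps genes tested), 0 under a test for more than 1.5-fold, and 0 by the methods' t-test after adjustment (6 up and 3 down at an unadjusted p under 0.05). With each pheromone fitted alone there were 11 calls of 29 with P-factor (8 up and 3 down) and 6 of 34 with M-factor (6 up and 0 down). The share of all genes called in these fits was not counted. The 12 calls with M-factor became 4 with 1 spot, 1 under the 1.5-fold test and 0 by the methods' t-test (7 up and 0 down unadjusted). After adjustment that t-test called only 5 of all 4078 genes with P-factor and 5 with M-factor. Unadjusted, it called 1502 of 4078 with P-factor and 1164 with M-factor. Leaving out 1 array gave 1 to 9 calls with P-factor, 7 to 13 with M-factor and 0 to 2 differences. The 2 differences became 1 with either reading of the log base and 0 with 1 spot; with the time point as replicate block there were 3. No slope was called under any alternative run. The causes were not tested beyond the fewer genes or arrays that an alternative holds.

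With 1 spot per gene the ESCRT median became 0.085 with P-factor and 0.53 with M-factor, and the HOPS/CORVET median with M-factor 0.043, where over all 6 members it was -0.042 with P-factor and 0.059 with M-factor. With all arrays read as log2 the retromer median with P-factor became 0.23. Of 817 values under alternatives 725 kept their direction and side of the threshold, 67 lost a call and 7 gained one. A mean that was not called has no call to lose. The other 18 values changed sign, all of means not called. With 1 spot these were vps1301 (-0.048 with P-factor, -0.19 with M-factor), vps66 (-0.18 with P-factor, -0.17 with M-factor) and vps41 (0.22 with P-factor, 0.15 with M-factor). The M-factor mean of vps4 became -0.007 after centring and -0.023 after quantile normalisation. Leaving out 1 array gave P-factor means of -0.114 to 0.202 for vps1301, -0.124 to 0.306 for vps1302, -0.123 to 0.182 for vps66, -0.137 to 0.008 for vps20 and -0.219 to 0.172 for vps54. It gave M-factor means of -0.014 to 0.065 for vps1301, -0.008 to 0.11 for vps1302 and -0.274 to 0.147 for vps4. The vps5 ratio at 6 h as M over P cells stayed past 2-fold if read as log2.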
